A study of Mus musculus with 3 samples.

Results

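The genes described here are the nuclear-encoded subunits of the oxidative phosphorylation system, in stem cells derived from tail tendon of C57BL/6 mice and grown in culture. They were chosen by symbol: protein-coding genes starting with Ndufa, Ndufb, Ndufc, Ndufs, Ndufv, Uqcr, Cox4i to Cox8 or Atp5, plus Sdha, Sdhb, Sdhc, Sdhd and Cyc1, with at least 10 estimated counts in any library. Of 97 such symbols in the RefSeq gene table of mouse assembly GRCm38.p6, 92 were listed in the deposited tables and 88 reached the minimum, out of 16621 genes in all. They comprise 36 genes of complex I, 4 of complex II, 9 of complex III, 14 of complex IV and 17 of complex V. The prefix Ndufa also takes in 8 complex I assembly factors, the Ndufaf genes, which are not subunits and are described apart. Ndufa4 and its paralogue Ndufa4l2 carry complex I names; Ndufa4 is now assigned to complex IV, and both are counted there.

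The study sequenced poly(A) RNA from 3 libraries: 1 of wild-type (WT) cells and 2 of cells with the CFTR ΔF508 mutation (DF508), the common cystic fibrosis allele, which removes a phenylalanine from an epithelial anion channel. All libraries came from mice stated to be 10 weeks old. The cells were untreated and were harvested at passage 4, when confluent, from medium with serum and low glucose. Nothing in the labels tells separate animals from separate dishes for the DF508 pair, so the p-values reflect spread between libraries that may be purely technical, and the WT library is assumed to vary like the DF508 pair.

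Totals were 5298326 estimated counts in WT, 5241826 in DF508 replicate 1 and 5246886 in DF508 replicate 2. All 12 tendon lineage markers examined reached 10 counts in some library. Thbs4 and Col1a1 were the highest, and Scx was the lowest with 16 counts in WT and 11 and 13 in DF508. In the test described below, 2 of the 12 were lower in DF508 (Cilp and Egr2) and 1 higher (Dcn), where 0.9% and 0.489% of all tested genes were. These 3 calls were lost with no filter on low counts, on FPKM and on total counts alone, where 0 genes passed. Of the skeletal muscle markers, Myod1, Myog, Myh1, Myh2, Myh4 and Pax7 were listed in no library and Ckm was at 0 counts in WT and DF508 replicate 1. Tnnt3 and Tnnc2 had at most 4 counts. Acta1 had 10 counts in WT and 27 and 20 in DF508, and Des had 4, 7 and 10. Both had positive fitted log2 fold changes (1.19 and 1.04) and did not pass (edgeR adjusted p = 0.482 and 0.76). The summed level of the muscle list was 3.47, 6.63 and 6.23 CPM, and its part in the results was not tested. Endothelial and epithelial markers were at or near 0, except Tek. The summed level of 11 macrophage and myeloid markers was 97 CPM (counts scaled to library size) in WT, 144 CPM in DF508 replicate 1 and 675 CPM in DF508 replicate 2. All 11 were positive in fitted fold change and none passed the test. Their part in the results below was not tested. In a mixed culture, fewer cells of a type and less RNA per cell cannot be told apart.

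Oxidative phosphorylation is the route by which mitochondria make most of a resting cell's ATP. Complex I (NADH dehydrogenase) and complex II (succinate dehydrogenase) pass electrons to ubiquinone. Complex III (cytochrome bc1) passes them to cytochrome c and complex IV (cytochrome c oxidase) to oxygen. Complexes I, III and IV pump protons, and complex V (ATP synthase) uses the proton gradient to make ATP. A small set of core subunits is encoded in mitochondrial DNA and the rest in the nucleus. The mitochondrially encoded subunits were sought under 26 symbols, of which 0 were found in the deposited tables, so they were not analysed here. Nuclear respiratory factor 1 (NRF1), the GABP complex of the ETS family and YY1 are transcription factors known to bind promoters of many of the nuclear genes.

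Promoter sequences were searched for motifs of these factors, because the members are known to share them. RefSeq gives promoters for 73 of the 88 genes, as 250 bases before and 50 after the gene start (GRCm38.p6). Ndufa4l2 is among the 15 without an entry, so no motif count or median below covers it. The NRF1 motif searched, GCGCANGCG on either strand, occurred in 22 of the 73 (30.1%), against 7.03% of 27025 genes with a promoter entry and 15.1% of the tested genes with one. An ETS motif, CCGGAAG on either strand, occurred in 19 (26%), against 9.93% of all and 19.9% of tested genes. A YY1 motif, AAGATGGCG on either strand, occurred in 8 (11%), against 1.64% and 3.53%. The short core of the hypoxia-inducible factor site, ACGTG on either strand, was in 16 (21.9%), against 21.8% and 29.2%, and the estrogen-related receptor motif TCAAGGTCA on either strand in 2 (2.74%), against 0.466% and 0.303%. No motif searched contains another, but matches could overlap at their ends. A match describes these letters only and shows no binding. The NRF1 motif was in 8 of 32 complex I promoters, 2 of 3 for complex II, 2 of 5 for complex III, 1 of 11 for complex IV, 7 of 15 for complex V and 2 of 7 for the assembly factors. The stretches below show it before the gene start of the most highly expressed carrier in those groups where the motif lay before the start. They run 5′ to 3′ on the gene's strand, with the motif on either strand in capitals.
Ndufb4, chr16:37654369-37654450, minus strand: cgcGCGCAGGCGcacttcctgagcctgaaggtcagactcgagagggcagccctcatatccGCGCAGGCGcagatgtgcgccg
Sdha, chr13:74350241-74350310, minus strand: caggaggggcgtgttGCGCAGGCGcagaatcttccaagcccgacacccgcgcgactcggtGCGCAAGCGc
Cox6a1, chr5:115349007-115349135, minus strand: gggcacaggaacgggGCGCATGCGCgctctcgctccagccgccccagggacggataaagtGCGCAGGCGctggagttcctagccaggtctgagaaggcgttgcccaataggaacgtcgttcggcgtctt
Atp5g2, chr15:102671048-102671148, minus strand: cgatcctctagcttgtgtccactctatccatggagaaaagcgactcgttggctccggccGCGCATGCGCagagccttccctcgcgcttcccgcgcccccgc
Ndufaf4, chr4:24897911-24898039, plus strand: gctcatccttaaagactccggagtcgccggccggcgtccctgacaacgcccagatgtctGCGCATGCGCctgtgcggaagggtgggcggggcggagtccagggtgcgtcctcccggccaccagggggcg
Ndufb4, Sdha and Cox6a1 each show 2 copies of the motif and Atp5g2 and Ndufaf4 show 1. The 22 genes with the NRF1 motif had a median log2 fold change of -0.06 in DF508 (lowest -0.27, highest 1.08) and the other 51 a median of -0.13. Nrf1 itself, which shares reads with another gene, was at 18.9 CPM in WT and 17.8 and 19.2 CPM in the DF508 libraries.

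Between genotypes, 1 of the 88 genes passed the test and 87 did not. Ndufa4l2, a hypoxia-linked paralogue of a complex IV subunit, fell by 0.95 on the log2 scale, and no gene rose (edgeR quasi-likelihood test over 12888 genes, Benjamini-Hochberg adjusted p under 0.05). Over all tested genes 0.9% were called lower and 0.489% higher. At an unadjusted p under 0.05 there were 5 lower genes (Ndufa4l2, Ndufv3, Cox4i1, Atp5g2 and Cox5a) and 0 higher, where 6.08% and 5.86% of all tested genes were. In no member were both DF508 values 2-fold or more away from WT, against 0.59% of all tested genes below and 1.35% above. The missing calls do not show equal levels. For 78 of the 88 genes the 95% interval of the fitted fold change lay within 2-fold either way, and for 55 within 1.5-fold. In the fit 2 genes were at least 1.5-fold from WT, Ndufa4l2 and the sparsely counted Ndufaf5, where 12.8% of all tested genes were.

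The levels as a whole lay slightly lower in DF508. Summed over the 88 genes they were 4486 CPM in WT, 4177 CPM in DF508 replicate 1 and 4229 CPM in DF508 replicate 2. WT was the highest library, and the DF508 libraries stood close together. The ratio to WT was 0.931 in replicate 1 (exact 95% interval 0.914 to 0.948) and 0.943 in replicate 2 (0.926 to 0.96), while replicate 2 against replicate 1 gave 1.01 (0.994 to 1.03). These intervals cover counting error only, and with 3 libraries no exact permutation test can pass a threshold of 0.05. Scaled to total counts alone, without the factors that correct for composition, the ratios were 0.959 and 0.973. Both DF508 libraries lay below WT for 47 of the 88 genes, where 36.2% of all tested genes did, and above WT for 15, where 36.3% did. WT lay between them for 26 (27.5% of all). Both libraries lay below WT by more than their own gap for 29 members and above it for 4, where 20.2% and 20.6% of all tested genes did. The median log2 fold change was -0.09 over the members and 0.01 over all tested genes. Fitted fold changes were negative in 61 members (69.3%) and positive in 27, where 49.1% of all tested genes were negative. On total counts alone the medians over members and all tested genes were -0.041 and 0.050.

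These transcripts are short, with a median deposited length of 702 bases against 2868 for all tested genes. Of the 781 other tested genes under 1000 bases, 58% had a negative fold change, with a median of -0.04, and of the 12019 longer ones 48.4% did, with a median of 0.01. The 59 members under 1000 bases had a median of -0.09 and the 29 longer ones of -0.07. The part of transcript length in the small overall difference was not tested.

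**Figure D1:**
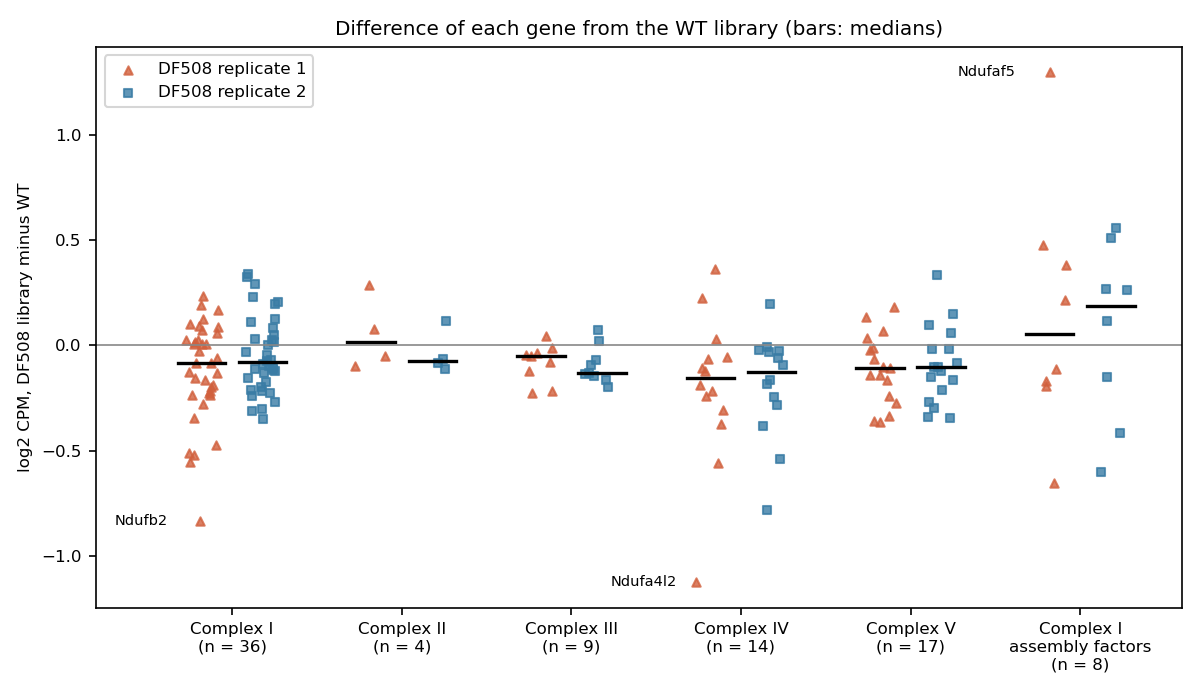
Difference in log2 CPM of each gene from the WT library (y axis), by complex (x axis), for DF508 replicate 1 (triangles) and replicate 2 (squares), with bars at the medians. The lowest point is Ndufa4l2 in replicate 1 at -1.13 and the highest is Ndufaf5 in replicate 1 at 1.30, while the medians of complexes I to V lie between -0.16 and 0.01.

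Ndufa4l2 (gene ID 407790) encodes a small mitochondrial protein known as a target of hypoxia-inducible factor 1 that restrains respiratory chain activity when oxygen is low. Its level was 66.6 CPM in WT, 30.3 CPM in DF508 replicate 1 and 38.5 CPM in DF508 replicate 2. Both DF508 libraries were well below WT, and the gap between them was smaller than the distance of either from WT. The gene was 1.93-fold lower in DF508 (95% interval 1.51 to 2.48; log2 fold change -0.95 ± 0.16 SE, edgeR adjusted p = 0.0298), with a DF508 mean of 34.4 ± 5.8 CPM (SD, n = 2). The call was lost without genes that share reads (adjusted p = 0.0568), on log2(FPKM + 1) (adjusted p = 0.499), with no filter on low counts (adjusted p = 0.662) and on total counts alone (adjusted p = 0.469), and DESeq2 gave it no adjusted p (unadjusted p = 0.00441). It passed in 4 of 10 alternatives, and from WT the difference was -1.13 in log2 CPM for replicate 1 and -0.78 for replicate 2. The myeloid markers also differed between these libraries, and their part in the difference was not tested. Its gene model overlaps that of Shmt2, a serine hydroxymethyltransferase, when whole gene spans are compared on GRCm38.p6. The estimates for Ndufa4l2 (345, 160 and 204 counts in WT and DF508 replicates 1 and 2) were whole, so they showed no split reads. Whether the annotation used for counting overlaps there is not known. Shmt2 was at 81.2, 80.1 and 82.1 CPM in the same order.

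Ndufa4 (gene ID 17992), the constitutive paralogue and a subunit of complex IV, did not share this pattern. It was at 60.6 CPM in WT, 70.8 CPM in DF508 replicate 1 and 69.4 CPM in DF508 replicate 2. Both DF508 libraries were slightly above WT, with a fitted 1.16-fold difference (95% interval 0.965 to 1.39, edgeR adjusted p = 0.532). In deposited FPKM, fragments scaled to transcript length and library size, the ratio of Ndufa4l2 to Ndufa4 was 0.527 in WT (exact 95% counting interval 0.451 to 0.616). It was 0.205 in DF508 replicate 1 (0.17 to 0.248) and 0.266 in replicate 2 (0.223 to 0.317). The WT interval overlapped neither DF508 interval. These intervals cover counting error only, and Ndufa4l2 was called lower in the same libraries, so this is not a second test.

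A list of 8 hypoxia-linked genes of respiration and glucose use gave the neighbourhood of that change. Of the 7 tested, 3 fell, 0 rose and 4 did not pass, where 0.9% of all tested genes were called lower. All 7 were negative, as 49.1% of all tested genes were, with a median log2 fold change of -0.51 beside 0.01 over all tested genes. The list holds Ndufa4l2 itself. It was chosen with earlier results of these data known, so these counts describe the list and give no independent support. The 3 calls were lost with no filter on low counts, on FPKM and on total counts alone, where 0 of all genes passed. Bnip3, a mitophagy receptor, was at 132 CPM in WT and at 56.8 and 69.8 CPM in the DF508 libraries (2.08-fold lower, edgeR adjusted p = 0.0111). Pdk1, the kinase that shuts off pyruvate dehydrogenase, was at 70.6, 39.6 and 40.8 CPM (1.76-fold lower, edgeR adjusted p = 0.0208) and shares reads with another gene, so it is uncertain. In all 3 genes WT was the highest library and stood clear of both DF508 libraries. The lactate dehydrogenase subunit Ldha, which also shares reads, was at 508, 388 and 404 CPM (adjusted p = 0.149). Lonp1, a mitochondrial protease, was at 55, 42.2 and 44.3 CPM (adjusted p = 0.321). Slc2a1, the glucose transporter, and Higd1a, a small respiratory chain protein, had log2 fold changes of -0.30 and -0.51 and adjusted p of 0.309 and 0.49. Cox4i2, the hypoxia-inducible isoform of Cox4, was below the minimum with 4 counts in WT and 7 and 6 counts in the DF508 libraries.

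**Figure D2:**
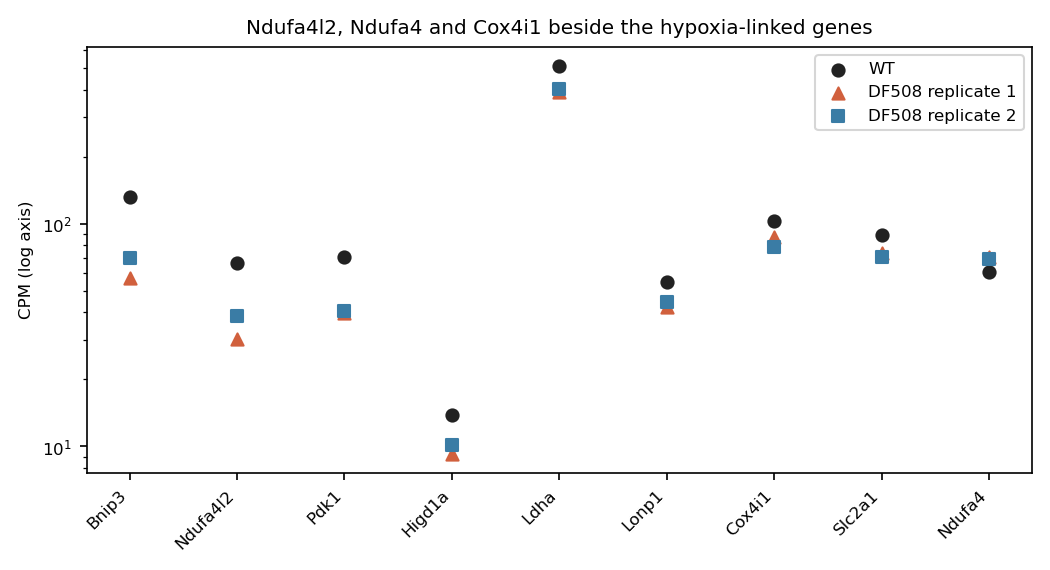
CPM (y axis, log scale) of Ndufa4l2, Ndufa4, Cox4i1 and the other tested hypoxia-linked genes (x axis) in WT (circles), DF508 replicate 1 (triangles) and DF508 replicate 2 (squares). WT is the highest point for each gene but Ndufa4, and CPM is to be compared within a gene, since it is not scaled to length.

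Complex IV had the lowest summed level relative to WT of any group. It was 882 CPM in WT, 774 CPM in DF508 replicate 1 and 784 CPM in DF508 replicate 2, a ratio of 0.877 (exact 95% counting interval 0.841 to 0.915) and 0.889 (0.852 to 0.927). Without Ndufa4l2 and Ndufa4, the 12 Cox genes gave 0.891 (0.851 to 0.933) and 0.895 (0.855 to 0.937). Both DF508 libraries were below WT for 10 of these 12 and above WT for 0, and WT lay between them for Cox5b and Cox6b2. Over all tested genes the shares were 36.2% below, 36.3% above and 27.5% between. None of the 12 passed the test, and their median log2 fold change was -0.14. On summed FPKM the complex IV ratios were 0.927 and 0.94. The difference between complex IV and the other complexes was not tested.

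Within complex IV, Cox4i1 (gene ID 12857), the ubiquitous isoform of the subunit through which ATP regulates the enzyme, was at 103 CPM in WT and at 86.9 and 78.5 CPM in DF508 replicates 1 and 2. WT was the highest, by more than the gap between the DF508 libraries, and the gene did not pass (1.24-fold lower, 95% interval 1.04 to 1.49, edgeR adjusted p = 0.308). Cox5a (gene ID 12858), one of the matrix-facing subunits, was at 17.2 CPM in WT and at 11.5 and 11.7 CPM in DF508 (fold change 0.677, 95% interval 0.469 to 0.978, adjusted p = 0.38). Its DF508 libraries were almost equal, and its 61 to 89 counts limit the precision. Cox6c was at 43, 33.1 and 35.3 CPM and Cox6b1, which links the monomers of the oxidase dimer, at 87.8, 70.8 and 77.4 CPM, with adjusted p of 0.427 and 0.456. Cox7a2l, a factor that joins complexes III and IV into supercomplexes, was at 118, 101 and 99.3 CPM (adjusted p = 0.435). Cox6a1, Cox7c and Cox8a were nearly level, each with a log2 fold change between -0.06 and -0.04. For Cox6a1 the values were 100.1 CPM in WT and 95.8 and 98.5 CPM in DF508, and for Cox8a 72.5, 67.2 and 72.1 CPM. Cox7b was at 63.9, 56 and 59.8 CPM and Cox7a2 at 26.2, 24 and 23.4 CPM. The gene model of Cox7a2 overlaps Tmem30a, whose level was 183, 172 and 176 CPM.

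Several complex IV subunits exist as tissue isoforms, and the set expressed here was the ubiquitous one. Cox6a2, Cox7a1 and Cox8b, the isoforms of heart and skeletal muscle, had 1, 2 and 0 counts in WT and at most 1 count in any DF508 library. Their partners Cox6a1, Cox7a2 and Cox8a stood at 194, 35.2 and 137 FPKM in WT. The testis isoforms Cox7b2 and Cox8c were listed in no library, and whether the annotation used for counting held them is not known. If it did, a count of 0 allows up to 0.579 CPM in WT and 0.568 and 0.566 CPM in the DF508 libraries. Cox6b2, also known from testis, was the exception and reached the minimum, at 7.14 CPM in WT and 9.28 and 6.98 CPM in DF508. Per length its ratio to Cox6b1 was 0.0755 in WT (exact 95% counting interval 0.0524 to 0.106), 0.119 in DF508 replicate 1 (0.0867 to 0.161) and 0.0835 in replicate 2 (0.058 to 0.117). These intervals overlap. By the minimum of 10 counts, Cox4i2 lay closest outside, and Ndufaf6, with 10, 15 and 9 counts, closest inside.

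**Figure D3:**
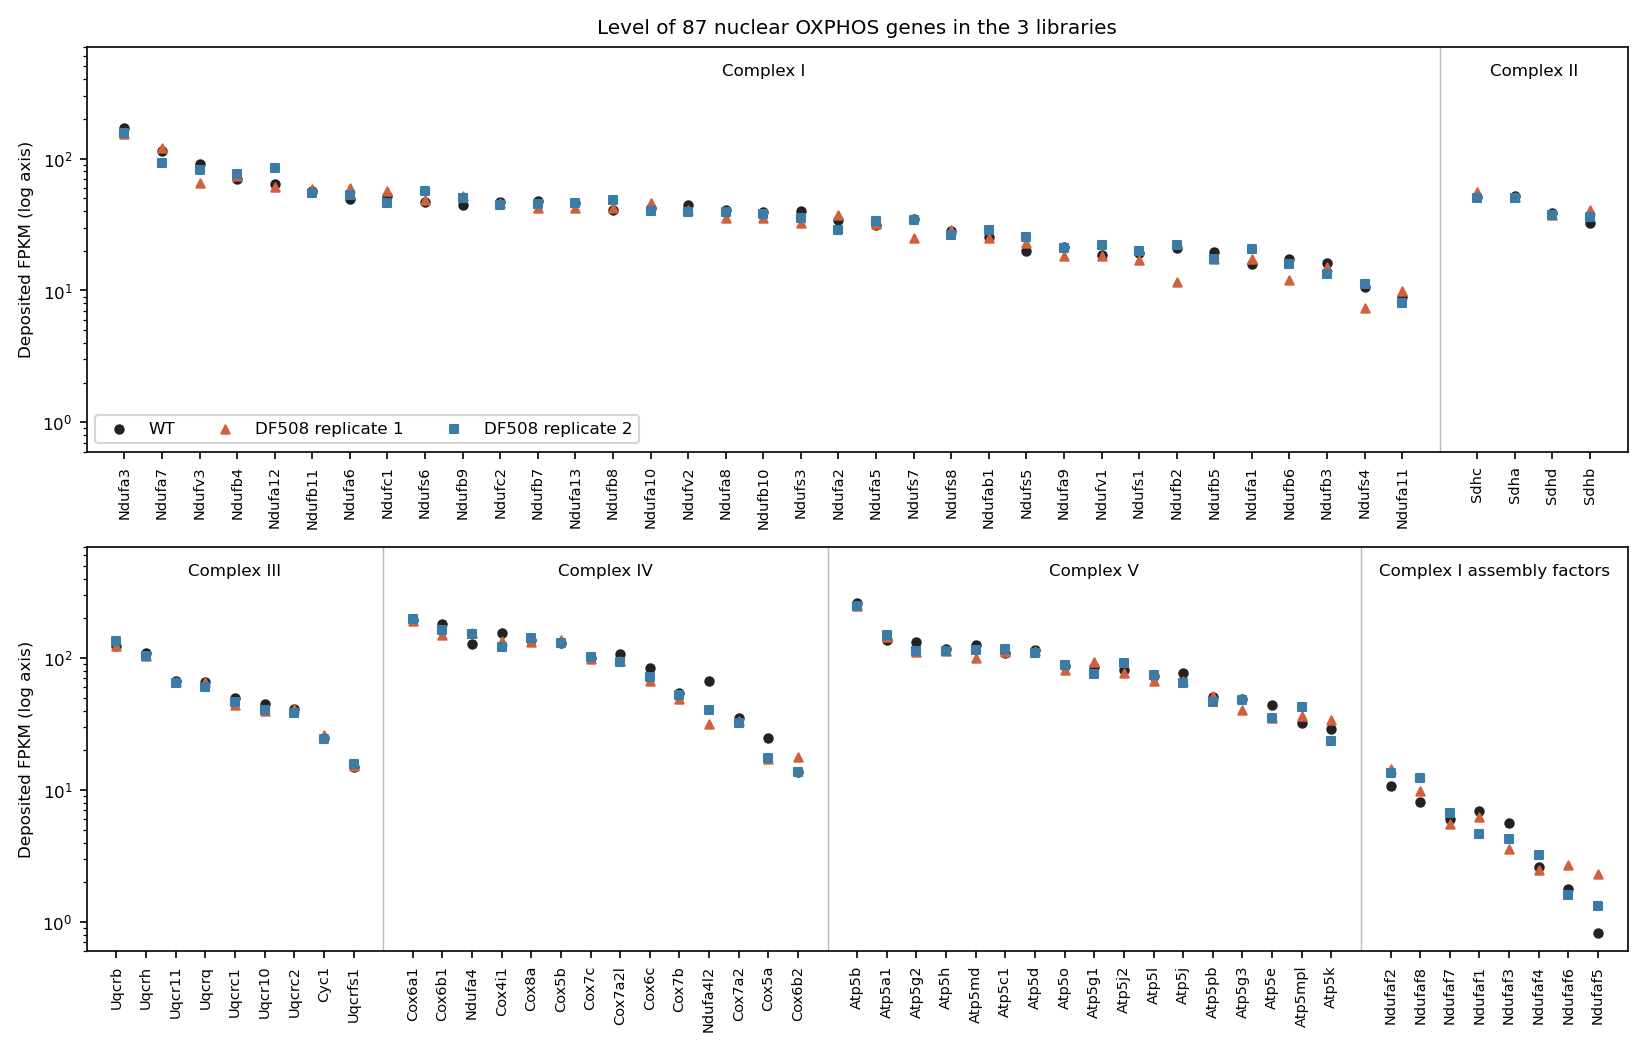
Deposited FPKM (y axis, log scale) of 87 of the 88 genes (x axis, ordered by mean within each complex) in WT (circles), DF508 replicate 1 (triangles) and DF508 replicate 2 (squares). The 3 libraries nearly coincide for most genes, WT stands above both DF508 libraries for Ndufa4l2 and Cox5a, and the assembly factors run from 0.83 to 14.5 FPKM.

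Complex V held the single most abundant transcript and had the largest summed CPM of any complex. Its median level in WT was 85.8 FPKM, below the 103 FPKM of complex IV. Atp5b (gene ID 11947), the catalytic beta subunit, had the highest level of all 88 genes at 263 FPKM in WT and 246 and 249 FPKM in DF508 replicates 1 and 2. In CPM it was at 503, 456 and 462, with WT above both (log2 fold change -0.13 ± 0.09 SE, edgeR adjusted p = 0.655). Atp5a1 (gene ID 11946), the alpha subunit that alternates with beta in the F1 ring, lay the other way at 339, 347 and 363 CPM (0.07 ± 0.10 SE, adjusted p = 0.861). Per length, alpha was at 0.516 of beta in WT (exact 95% counting interval 0.486 to 0.549), 0.582 in DF508 replicate 1 (0.548 to 0.619) and 0.602 in replicate 2 (0.567 to 0.64). Although the ring holds the subunits in equal number, the alpha transcript was the lower in all 3 libraries.

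Of the other F1 subunits, Atp5c1 (gamma, the rotor) was at 130, 129 and 135 CPM and Atp5d (delta) at 106, 101 and 98.7 CPM. Atp5e (epsilon), the smallest, was at 17.4, 13.4 and 13.6 CPM (1.28-fold lower, interval 0.901 to 1.83, edgeR adjusted p = 0.599). The F1 transcripts were thus unequal per length, with beta 6.02 times epsilon in WT and 7.05 and 7.06 times in the DF508 libraries. Atp5mpl, a small membrane protein of the complex, had the highest fold change in it, with 11, 12.1 and 14 CPM (1.18-fold, interval 0.787 to 1.79, adjusted p = 0.786). Atp5k, subunit e of the membrane part, had the largest gap between DF508 libraries in the complex, with 9.65 CPM in WT and 11 and 7.55 CPM in DF508. WT lay between them, and the gene had 40 to 58 counts.

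The proton-driven ring of subunit c is encoded by 3 genes, known to give the same mature protein behind different import sequences. Atp5g2 (gene ID 67942) was at 83.3 CPM in WT and at 68.9 and 69.1 CPM in DF508. Its DF508 libraries were almost equal and below WT, and it did not pass (1.21-fold lower, 95% interval 1.02 to 1.44, edgeR adjusted p = 0.364). Atp5g1 was at 67.9, 71.2 and 58.5 CPM and Atp5g3 at 32.8, 25.9 and 30.9 CPM. Summed per length the 3 genes gave 267 FPKM in WT and 245 and 237 FPKM in DF508. Atp5g2 made up 49.4% of that sum in WT and 45.8% and 47.5% in DF508, Atp5g1 32.2%, 37.8% and 32.2%, and Atp5g3 18.5%, 16.4% and 20.2%. The order of the 3 genes was the same in every library. The summed level of complex V was 1689, 1587 and 1616 CPM, a ratio to WT of 0.939 (0.912 to 0.968) and 0.957 (0.929 to 0.986), and its 17 genes had a median log2 fold change of -0.09 (-0.046 on total counts alone).

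Complex I, the largest complex, summed to 1151 CPM in WT, 1073 CPM in DF508 replicate 1 and 1101 CPM in DF508 replicate 2, a ratio of 0.933 (exact 95% counting interval 0.899 to 0.967) and 0.956 (0.922 to 0.992). Of its 36 genes, 15 had both DF508 libraries below WT (41.7%), 8 above (22.2%), and 13 on either side (36.1%). Over all tested genes these shares were 36.2%, 36.3% and 27.5%. No gene of the complex passed the test. On total counts alone the summed ratios of complex I were 0.961 in DF508 replicate 1 and 0.988 in replicate 2, with no interval computed. On summed FPKM they were 0.964 and 0.991. The 7 core subunits that carry the cofactors and the ubiquinone site had a median log2 fold change of -0.13, and the whole complex -0.08 (-0.038 on total counts alone). Ndufs1, which carries iron-sulfur clusters of the electron path, was at 54.8, 46.8 and 53.6 CPM. Ndufs3, Ndufs7 and Ndufv2 had both DF508 libraries below WT, and Ndufv1 and Ndufs8 had WT between them.

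The lowest fold change in complex I was that of Ndufv3 (gene ID 78330), an accessory subunit of the NADH-oxidising part. It was at 73.7 CPM in WT and at 53 and 59.6 CPM in DF508 replicates 1 and 2. WT was clear of both (1.31-fold lower, 95% interval 1.08 to 1.59, edgeR adjusted p = 0.23), and the gene did not pass. Ndufb2, an accessory subunit of the membrane arm, had the widest gap between the DF508 libraries of the genes with at least 5 CPM. Its counts were 47 in WT, 26 in DF508 replicate 1 and 49 in DF508 replicate 2, so 1 library stood low within a genotype. Ndufs4, an accessory subunit whose loss causes a Leigh-like disease in mice, showed the same with 86, 59 and 89 counts. Both fitted fold changes rest on DF508 replicate 1, since replicate 2 was 0.03 and 0.02 above WT on the log2 scale.

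At the upper end, Ndufs5, an accessory subunit, was at 10.4, 11.7 and 12.8 CPM, and Ndufa1, which is X-linked and needed for assembly, at 7.91, 8.33 and 10 CPM. Neither passed (adjusted p = 0.798 and 0.863). The transcribed pseudogene Ndufs5-ps was given 31, 38 and 0 counts. The deposited estimates of gene and pseudogene were fractional in WT (54.04 and 30.96) and in DF508 replicate 1 (61.54 and 38.46), and in each library they add up to a whole number. Summed, the counts were 85, 100 and 68, so DF508 replicate 2 was the highest library for the gene alone and the lowest for the sum. Per length, the level of complex I genes ran from 8.93 FPKM (Ndufa11) to 169 FPKM (Ndufa3) in WT, with Ndufa7 at 115 and Ndufv3 at 90.5 FPKM. Ndufa3, a small membrane subunit, was at 153 and 155 FPKM in DF508. Ndufa7 was at 120 and 92.7 FPKM there, so WT lay between.

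Complex II also serves the citric acid cycle. Its median log2 fold change was -0.03, and it turned to 0.012 without DF508 replicate 2 and to 0.016 on total counts alone. Its sum was 297 CPM in WT and 299.5 and 285 CPM in DF508, a ratio of 1.01 (exact 95% counting interval 0.94 to 1.08) and 0.96 (0.894 to 1.03), and both intervals hold 1. Sdha, the flavoprotein that oxidises succinate, was at 151, 146 and 142 CPM. Sdhb, the iron-sulfur subunit, was at 35.3, 43.2 and 38.3 CPM, the only gene of the complex with both DF508 libraries above WT (1.15-fold, 95% interval 0.904 to 1.47, edgeR adjusted p = 0.677). The membrane anchors Sdhc and Sdhd were at 60.2, 63.6 and 57.6 CPM and at 50.4, 47 and 46.6 CPM. Per length the 4 subunits lay between 32.3 and 51.5 FPKM in WT, the narrowest range of any complex.

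Complex III summed to 411 CPM in WT and 385 CPM in both DF508 libraries, a ratio of 0.938 (0.882 to 0.997) and 0.937 (0.881 to 0.996). The differences of its 9 genes were the most alike, all between -0.22 and 0.01 in log2 fold change. On total counts alone the summed ratios of complex III were 0.966 in DF508 replicate 1 and 0.967 in replicate 2, with no interval computed. Cyc1, the haem subunit that hands electrons to cytochrome c, was at 29.5, 30.5 and 28.1 CPM, and Uqcrfs1, the Rieske iron-sulfur protein, at 19.9, 19.7 and 20.2 CPM. WT lay between the DF508 libraries for both. Uqcrc1, a core subunit, was at 83.9, 72.1 and 76.4 CPM (1.13-fold lower, 95% interval 0.947 to 1.35, edgeR adjusted p = 0.611), and Uqcr10, a small subunit, at 19.1, 16.3 and 16.6 CPM. Uqcrb, which lies at the ubiquinone site, was the most abundant per length with 124 FPKM in WT and 123 and 134 FPKM in DF508. Uqcrh, the hinge protein, followed with 109, 103 and 103 FPKM, and Uqcr11 with 67, 65.4 and 64.8 FPKM.

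**Figure D4:**
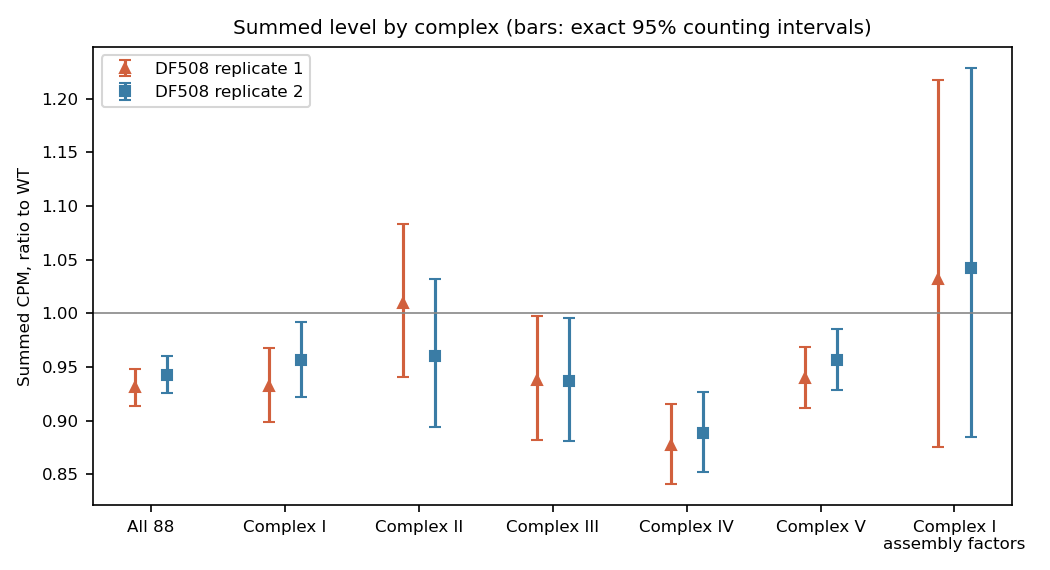
Summed CPM of each group as a ratio to WT (y axis) for DF508 replicate 1 (triangles) and replicate 2 (squares), with exact 95% intervals for counting error. Complex IV lies lowest at 0.877 and 0.889, and the intervals of complex II and of the assembly factors hold 1. The library sizes are corrected for composition, and on total counts alone the ratios of complexes I and III are higher.

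The 8 complex I assembly factors, which build the complex but leave it, were expressed far below the subunits. Their median was 5.82 FPKM in WT, against 40.5 FPKM for complex I. They summed to 55.6, 57.4 and 57.9 CPM, a ratio of 1.03 (exact 95% counting interval 0.876 to 1.22) and 1.04 (0.885 to 1.23). None passed the test. Both DF508 libraries were above WT for 3 and below for 2, where 36.3% and 36.2% of all tested genes were. The median log2 fold change of the 8 factors was 0.16. That median was 0.049 without DF508 replicate 2 and 0.045 with a mean of at least 50 counts. Ndufaf5, which modifies Ndufs7, had the highest fold change of all 88 genes on few counts. These were 12 in WT, 33 in DF508 replicate 1 and 19 in DF508 replicate 2 (2.11-fold, 95% interval 0.825 to 5.4, edgeR adjusted p = 0.537). Ndufaf3 had the lowest fold change of the 8 factors, also on few counts, with 32 in WT and 20 and 24 in DF508. It was 1.48-fold lower (95% interval 0.745 to 2.95, edgeR adjusted p = 0.681). Ndufaf2 was at 7.33, 9.66 and 8.87 CPM, Ndufaf8 at 3.86, 4.54 and 5.66 CPM, and Ndufaf1, a factor for the membrane arm, at 10.2, 8.9 and 6.6 CPM. Ndufaf7, a methyltransferase that shares reads with another gene, was at 14.1, 12.5 and 15.3 CPM, and Ndufaf4 at 9.65, 8.9 and 11.7 CPM.

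Within each library the genes kept nearly the same order of level. Spearman's rho of FPKM across the 88 genes, which share libraries and are not replicates, was 0.976 for WT with DF508 replicate 1, 0.983 for WT with replicate 2 and 0.986 for the DF508 pair. The spread of the log2 differences, as the scaled median absolute deviation, was 0.19 for WT with replicate 1, 0.17 for WT with replicate 2 and 0.20 for the DF508 pair. For all tested genes it was 0.28, 0.30 and 0.23. Among the 58 members with a mean of 100 to 500 counts, 14 differed between WT and the first DF508 replicate by more than the 95% range of counting noise (24.1%, against 24.5% of 5444 tested genes in that range). For WT with replicate 2 it was 8 (13.8% against 26%), and for the DF508 pair 5 (8.62% against 15.7%).

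The other lists of pathway genes held no gene that passed the test. Of 39 tested assembly factors outside the symbol rule, 0 rose and 0 fell, with a median log2 fold change of 0.00. The most abundant per length were Uqcc2, a complex III factor, at 36.1, 25.9 and 31.3 CPM, and Cox20, a complex IV factor, at 15.2, 14.6 and 16.2 CPM. Of 19 electron carrier, ubiquinone synthesis and exchange genes none passed (median -0.06). The adenine nucleotide carrier Slc25a4 was at 167, 154 and 166 CPM and the phosphate carrier Slc25a3 at 219, 193 and 194 CPM. Cycs, cytochrome c itself, which shares reads, was at 36.3, 45.2 and 54.2 CPM (adjusted p = 0.274); it was chosen after its values were seen. Of 17 pyruvate dehydrogenase and citric acid cycle genes none passed (median 0.00), with Mdh2, malate dehydrogenase, at 120, 122 and 138 CPM. Of 15 biogenesis and mitochondrial DNA maintenance genes none passed (median -0.03). Yy1 was at 58.8, 63.8 and 58.7 CPM and Gabpa, whose gene model overlaps that of Atp5j, at 103, 110 and 108 CPM. Ppargc1a, the coactivator known to drive mitochondrial biogenesis, was below the test's filter with 1.35, 0.947 and 1.13 CPM.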

How the data were processed

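Poly(A) RNA of 3 libraries was analysed, each with its own deposited table. Bowtie, RSEM and mm9 are named in the submitters' processing notes; their versions, the annotation and any use of strand are not given in the sources read, and no coordinates of the files are printed. Per the file headers, each table holds deposited expected counts (estimated by RSEM and not normalized), the FPKM as deposited (scaled by the authors to length and library size) and the gene length. Genes missing from a table were set to 0. Gene IDs were named with a RefSeq table (GRCm38.p6; 16579 of 16621 matched).

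Expected counts were rounded and tested with edgeR 4.0.16 (quasi-likelihood, TMM factors, filterByExpr, genotype as sole term, Benjamini-Hochberg over 12888 genes, threshold 0.05; 1 residual and 7.72 prior degrees of freedom) in R 4.3.3. All 88 members passed filterByExpr. CPM uses TMM library sizes, and log2 CPM a prior count of 2. Intervals of fold changes are fitted log2 changes with their SE (log2 fold change over the root of F). Genes with an estimate not whole within 0.005 share reads (2 members). On simulated counts for these 12888 genes 58% of changes of 2-fold and 90.3% of those of 4-fold were called, with at most 1 false call in each of 3 simulations. Changes were put only on genes with at least 5 CPM, and every library was drawn from the dispersion trend fitted to these data. The simulation therefore cannot show the false calls to be met if WT varies otherwise than the DF508 pair. Promoter motifs were searched as cores of at most 9 letters, a length set after longer NRF1 and YY1 forms had been searched. Alternatives used DESeq2 1.42.0 and limma 3.58.1.

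Members, lists and tests were chosen with earlier results of these data known. Named genes were members past the threshold, the 3 highest and 1 lowest by FPKM and the extremes of fold change in each complex, the 3 with the widest gap between DF508 libraries, complex II, Cyc1, isoform groups, subunit c, and from each pathway list its calls and 2 most abundant genes. A member and a pathway gene are not reported singly here. Other members named were chosen after their values were seen.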

Additional observations from a re-analysis of the deposited data

How the results depend on the processing

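Of 562 comparisons over 44 named genes, 476 stayed within the limits set for them, 80 moved by more than 1 SD of the DF508 pair and 6 were weaker. The weaker ones were all Ndufa4l2, which passed in 4 of the 10 alternatives that gave it an adjusted p (its log2 fold change ran from -1.13 to -0.78 over all of them). Total-count scaling of the tests was chosen after seeing the data. Counts of members lower were 0, and of all genes 0 lower and 0 higher, with no filter on low counts (5 members lower at unadjusted p under 0.05), on log2(FPKM + 1) of genes averaging 1 FPKM or more (5), on log2(FPKM + 0.1) of the same (5), on log2(FPKM + 1) of every gene (5) and with total-count scaling (3). DESeq2 gave 0 members lower (1 at unadjusted p under 0.05), 48 genes lower and 15 higher, and gave 61 members no adjusted p. Without genes sharing reads there were 0 members lower (5 at unadjusted p under 0.05), 52 genes lower and 19 higher, over 9966 genes tested. The cause was not tested in the other settings.

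With upper-quartile factors the median log2 fold change was -0.064 over all members, -0.074 for complex III, -0.12 for complex IV and -0.069 for complex V, and the ratio of summed levels in DF508 replicate 2 was 0.961. Total-count scaling, which moves the median of all tested genes from 0.0055 to 0.050, gave -0.041, -0.050, -0.098 and -0.046 in the same order, 0.21 for the assembly factors, summed ratios of 0.959 and 0.973 for all members and 0.988 for complex V in replicate 2. The medians were -0.042, -0.049, -0.097 and -0.047 on log2(FPKM + 1) of every gene and -0.043, -0.051, -0.099 and -0.048 on log2(FPKM + 0.1). Summed FPKM gave ratios of 0.954 and 0.972 for all members and 0.927 and 0.94 for complex IV. With a mean of at least 50 counts the median was -0.087 for complex III and 0.045 for the assembly factors, and without genes sharing reads 0.23 for the latter. Leaving out 1 DF508 library, which leaves no residual degrees of freedom and so no test, gave medians of -0.13 to -0.053 for complex III, -0.11 to -0.10 for complex V and 0.049 to 0.19 for the assembly factors. The 146 of 200 summary values not given here stayed within their limits. No paired analysis was possible because WT has 1 library, so the groups share fewer than 2 replicate numbers.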
